A study of Rattus norvegicus with 6 samples.

Results

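The glucocorticoid receptor and its known target genes were followed in whole blood taken 24 h after reperfusion from 3 MCAO rats and 3 sham rats, with 1 array per rat. Members were all probe sets whose gene symbol in the array annotation was Nr3c1, Tsc22d3, Fkbp5, Per1, Dusp1, Zbtb16, Klf9, Anxa1, Sgk1 or Cebpd. This rule gave 16 probe sets for 9 of the 10 genes, out of 31042 probe sets tested. No probe set carried the symbol Zbtb16, so this gene was not analysed here. All rats were male Sprague-Dawley rats of 8 weeks. In the MCAO group a silicone-coated nylon thread closed the origin of the left middle cerebral artery, whereas the sham group underwent the same operation with an uncoated thread. The rats of both groups were therefore anaesthetised with isoflurane, had the common and external carotid arteries ligated and were bled from the heart. The study had no unoperated group, and the 3 MCAO rats were chosen from a larger number of operated rats by infarct size. Neither the time of day of bleeding nor a hormone level is given in the sources used here. The comparison addresses how these genes stood in blood after infarction relative to blood after the same surgery without it.

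The glucocorticoid receptor, encoded by Nr3c1, rests in the cytoplasm in a complex with the chaperone Hsp90 and moves to the nucleus when it binds corticosterone, the main glucocorticoid of the rat. There it binds DNA as a dimer at an inverted repeat and switches on genes that restrain inflammation (Tsc22d3, Dusp1, Anxa1), that dampen the receptor itself (Fkbp5), or that serve metabolism, ion transport and the clock (Sgk1, Klf9, Per1, Cebpd). Glucocorticoids are also known to shift the numbers of blood leukocytes, with neutrophils rising and lymphocytes falling in the circulation. In whole blood, fewer cells of a type and less RNA per cell cannot be told apart.

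Promoter sequences are shown for Dusp1 and Anxa1, the 1 pair of targets whose correlation over the rats passed the test, and for the most downstream of the 3 Tsc22d3 starts, since Tsc22d3 had the highest correlation with the receptor. They are RefSeq windows of 300 bases on GRCr8, from 250 bases before to 50 bases after a gene start. Of the 10 genes, 8 matched this table, with 13 windows in all. The full receptor element, AGAACA and TGTTCT set apart by any 3 bases, was found in 0 of the 13 windows and in 0.0149% of 33469 windows of all genes. A single arm of it (AGAACA, or TGTTCT on the other strand) was found in 0 of the 13 and in 20.7% of all windows. These letters are thus not in these windows, which says nothing about elements farther away. Capitals mark other motifs, looked for after the windows had been seen. The palindromic cAMP response element, in capitals in Dusp1, was found in 1 of the 13 windows and in 1.83% of all. TATAAA or its reverse complement was found in 4 of the 13 windows and in 14.2% of all.
Dusp1, chr10:17184603-17184902, plus strand: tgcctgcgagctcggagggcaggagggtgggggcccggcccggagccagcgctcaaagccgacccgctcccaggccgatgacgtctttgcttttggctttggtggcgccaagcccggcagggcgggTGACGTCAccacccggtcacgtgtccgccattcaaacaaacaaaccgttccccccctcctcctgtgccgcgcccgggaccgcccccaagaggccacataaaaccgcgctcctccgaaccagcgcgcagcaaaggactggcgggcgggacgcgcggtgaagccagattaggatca
Anxa1, chr1:227303683-227303982, minus strand: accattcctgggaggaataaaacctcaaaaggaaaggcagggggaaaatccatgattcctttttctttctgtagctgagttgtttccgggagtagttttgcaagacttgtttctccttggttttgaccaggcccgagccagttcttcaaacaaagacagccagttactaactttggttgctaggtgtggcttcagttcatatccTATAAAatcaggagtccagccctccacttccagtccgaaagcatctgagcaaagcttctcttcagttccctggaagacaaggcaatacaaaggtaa
Tsc22d3, chrX:109009985-109010284, minus strand: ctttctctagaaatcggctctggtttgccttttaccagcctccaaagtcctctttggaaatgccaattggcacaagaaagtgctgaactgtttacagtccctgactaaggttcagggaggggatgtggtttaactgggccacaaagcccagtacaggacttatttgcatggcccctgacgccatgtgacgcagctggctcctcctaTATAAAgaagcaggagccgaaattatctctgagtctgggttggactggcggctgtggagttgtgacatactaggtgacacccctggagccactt

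The deposited values, read as log2 since their base is not given in the sources used here, come from the DFW (Distribution Free Weighted) method, which contracts differences between arrays, and most probe sets hardly vary after it. The median standard deviation (SD) of a probe set over the 6 rats was 0.00246 thousandths of a log2 unit. Values of the members are therefore given as deviations from the mean of the 6 rats, in thousandths of a log2 unit, and are not fold changes of the raw intensity. Among the members the SD ran from 0.000428 for the second Nr3c1 probe set to 9.30 for Anxa1. The 10% of probe sets with the largest SD held 7 of the 16, namely those of Anxa1, Tsc22d3, the first of Nr3c1, the first of Dusp1, 1 of Klf9 and 2 of Cebpd. At the other end, Per1 ranged over 0.00303 thousandths between its lowest and highest rat, so for this clock gene the arrays hold almost no difference to describe. At most members, therefore, the size of a change in RNA cannot be read. The order of the rats, given below for the deposited values, depended on how the arrays were scaled. With the arrays centred on their medians, 9 of the 16 differences between the groups moved by over 1 SD. The number of members with the groups fully apart then went from 0 to 5. After quantile normalization 5 of the 16 differences changed sign.

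**Figure D1:**
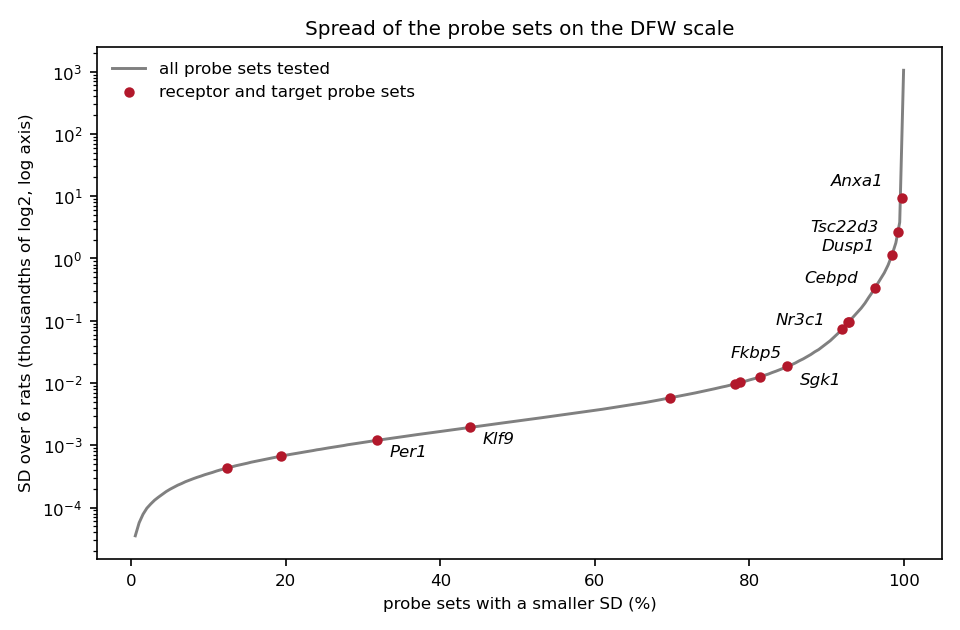
Standard deviation over the 6 rats (y axis, thousandths of a log2 unit, log axis) against the percentage of probe sets with a smaller SD (x axis), with the line for all 31042 probe sets and points for the 16 members, of which 1 per gene is named. Anxa1, Tsc22d3 and Dusp1 lie at the steep right end and Per1 and Klf9 lie low on the curve.

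None of the 16 probe sets was called different between the MCAO and sham groups. By Rank Products, the method of the study, 0 were called higher and 0 lower at a false discovery rate (FDR) under 0.05. This method ranks unscaled differences over all probe sets, so members with a small SD could hardly be called. For those members the lack of a call says little. Of all probe sets 0.135% were called higher and 0.612% lower (0.747% in either direction). The lowest FDRs were 0.245 for Anxa1, towards higher in the MCAO group, and 0.356 for Tsc22d3, towards lower. With limma 0 of the 16 had an adjusted p under 0.05, as had 0% of all probe sets, and 0 of the 16 had an unadjusted p under 0.05, against 3.7% of all. At none of the 16 did every MCAO rat lie above, or every MCAO rat below, every sham rat, whereas 4.82% and 3.6% of all probe sets were so separated (8.41% together). The mean was higher in the MCAO group at 12 of the 16 and lower at 4, beside 53.4% higher over all probe sets. Without MCAO rat 3 the counts turned to 7 higher and 9 lower, and after quantile normalization they were 9 higher and 7 lower, with 5 signs changed in each case. With the arrays centred on their medians, 5 of the 16 (both of Fkbp5, Per1, the second of Dusp1 and Sgk1) had every MCAO rat above every sham rat, as 26.8% of all probe sets were then separated in either direction. Centring adds the same amount to the difference of every probe set. It took that of Per1 from 0.000822 to 0.0306 thousandths and that of Sgk1 from 0.0151 to 0.0449. These separations are thus no separate result of these genes. With 3 rats a group the exact permutation test cannot give a p under 0.1. Its p values given below for differences refer to these rats only. Each is the share of the 20 ways to label the rats that gave a mean difference at least as large.

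Nr3c1, the receptor itself, had a mean log2 value of 5.598 at its first probe set. MCAO rats 1, 2 and 3 deviated from the mean by -0.144, 0.0159 and 0.0468 thousandths, and sham rats 1, 2 and 3 by 0.00250, 0.0397 and 0.0393. MCAO rat 1 alone was low, and MCAO rats 2 and 3 lay among the sham rats or above them. The log2 difference (MCAO minus sham) was -0.0543 thousandths (SE 0.0569, 95% CI -0.205 to 0.0966, exact permutation p = 0.7). Without MCAO rat 1 it turned to 0.00415. At the second Nr3c1 probe set all rats lay within 0.00106 thousandths of each other, and the difference was 0.000211 (SE 0.000435).

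Tsc22d3 encodes GILZ, a leucine zipper protein that restrains NF-κB and AP-1 in leukocytes, and had a mean log2 value of 7.67. MCAO rats 1, 2 and 3 deviated from the mean by -4.31, 1.44 and 1.23 thousandths, and sham rats 1, 2 and 3 by -2.03, 0.618 and 3.05. The lowest rat was MCAO rat 1 and the highest sham rat 3, and the groups overlapped over most of their range. The log2 difference was -1.09 thousandths (SE 2.24, 95% CI -7.05 to 4.87, exact permutation p = 0.7), and it was 0.788 without MCAO rat 1.

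Anxa1 encodes annexin A1, which limits the entry of neutrophils into tissue and is abundant in myeloid cells. MCAO rats 1, 2 and 3 had log2 values of 7.005, 7.022 and 7.033, and sham rats 1, 2 and 3 of 7.017, 7.022 and 7.016. MCAO rats 1 and 3 were the lowest and the highest of the 6, with all sham rats between them. Its SD was 14.2 thousandths among MCAO rats against 3.30 among sham rats, and the log2 difference of the means was 1.92 thousandths (SE 7.94, 95% CI -19.2 to 23.0, exact permutation p = 0.9). Without MCAO rat 1 the difference was 9.46, and without MCAO rat 3 it was -4.69. The interval holds changes in either direction. Without sham rat 2, Anxa1 was called higher by Rank Products (FDR 0.0442).

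Dusp1, a phosphatase that switches off the MAP kinases p38 and JNK, behaved in the same manner at its first probe set, with a mean log2 value of 6.999. MCAO rats 1, 2 and 3 deviated from the mean by -1.24, 0.0812 and 1.83 thousandths, and sham rats 1, 2 and 3 by -0.119, 0.544 and -1.10. MCAO rat 3 was again the highest and MCAO rat 1 again the lowest, here close to sham rat 3. The log2 difference was 0.447 thousandths (SE 0.9502, 95% CI -2.08 to 2.97, exact permutation p = 0.7), and it turned to -0.357 without MCAO rat 3. The second Dusp1 probe set, with an SD of 0.00970, had a difference of 0.0107 (SE 0.00665, exact permutation p = 0.3).

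Cebpd, a transcription factor of the acute phase and of granulocyte maturation, had 3 probe sets. At the first, MCAO rats 1, 2 and 3 deviated by -0.183, -0.0587 and 0.665 thousandths, and sham rats 1, 2 and 3 by -0.00453, -0.115 and -0.303. MCAO rat 3 stood apart from the other 5 rats. The difference was 0.282 thousandths (SE 0.262, 95% CI -0.413 to 0.977, exact permutation p = 0.5) and fell to 0.0200 without this rat. At the second probe set MCAO rat 3 was again alone at the top with 0.178, while the other rats lay between -0.0932 and 0.0156, and the difference of 0.0667 (SE 0.0741) turned to -0.00546 without it. The third probe set, with an SD of 0.000669, placed sham rat 1 highest.

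Sgk1, a kinase that raises sodium transport, had MCAO rat 3 alone at the top as well. MCAO rats 1, 2 and 3 deviated from the mean by -0.00837, -0.00476 and 0.0358 thousandths, and sham rats 1, 2 and 3 by -0.00599, 0.000582 and -0.0172. The difference was 0.0151 (SE 0.0142, exact permutation p = 0.5), and 0.000985 without MCAO rat 3. Fkbp5, a co-chaperone that lowers the affinity of the receptor for its hormone and is itself induced by it, had 2 probe sets. At the brighter one MCAO rats 1, 2 and 3 deviated by -0.0168, 0.000425 and 0.0191, and sham rats 1, 2 and 3 by -0.00160, -0.00880 and 0.00768. Here too the sham rats lay between MCAO rats 1 and 3. The differences at the 2 Fkbp5 probe sets were 0.00182 (SE 0.0107) and 0.000597 (SE 0.00876), with exact permutation p values of 0.9 and 1.

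Klf9 and Per1, which link glucocorticoids to the circadian clock, showed no common order. Klf9, a Krüppel-like repressor, had differences of -0.0658 (SE 0.0758), 0.000687 (SE 0.00165) and 0.00568 thousandths (SE 0.00418) at its 3 probe sets. MCAO rat 1 was the lowest of the 6 at the first of them and the highest at the other 2, so the probe sets of this gene contradict each other. Per1, a period gene of the clock, had deviations from -0.00178 in sham rat 3 to 0.00125 in sham rat 2, with all MCAO rats between these, and a difference of 0.000822 (SE 0.000990).

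**Figure D2:**
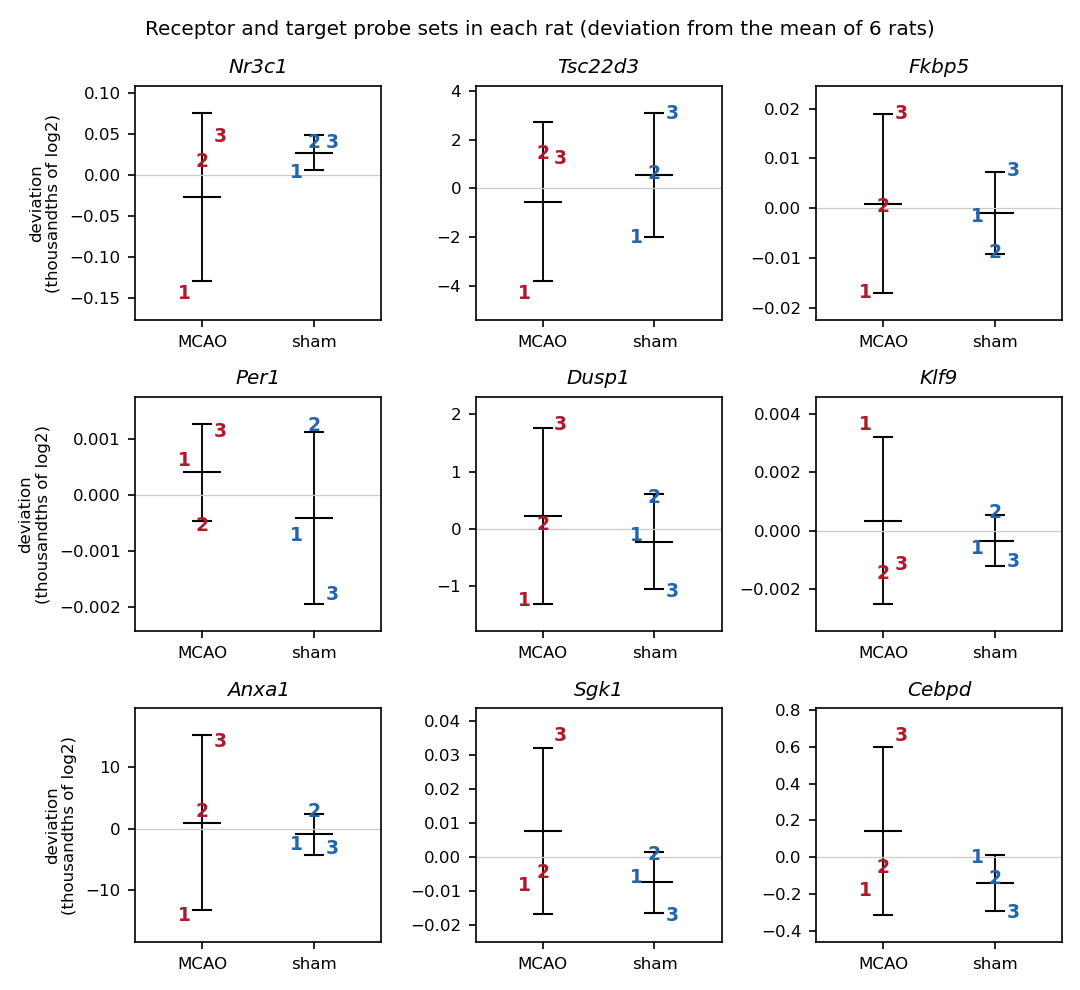
Deviation from the mean of the 6 rats (y axis, thousandths of a log2 unit) for 1 probe set per gene, where the digit is the rat's number and each bar spans the group mean with its SD (n = 3). Each panel has its own y axis. MCAO rat 3 is the highest of the 6 rats in 6 of the 9 panels, and the groups overlap in all 9.

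The difference that ran through most of these genes was one between rats of the MCAO group. MCAO rat 3 was the highest of the 6 rats at 9 of the 16 probe sets (56.2%) and MCAO rat 1 the lowest at 8 (50%), against 15.5% and 19.5% of all probe sets. At 6 of the 16 (37.5%) both held at once, against 6.16% of all. These 2 rats were singled out after the values had been seen. MCAO rat 1 was the highest at 2 of the 16 (30% of all probe sets) and sham rat 3 the lowest at 5 (17.6% of all). The shares differed with the spread of a probe set. Among the 10% of probe sets with the largest SD, MCAO rat 3 was the highest at 35.2% and MCAO rat 1 the lowest at 57%, with both at 24.2%. Of the 7 members in that class, MCAO rat 3 was the highest at 5 (71.4%) and MCAO rat 1 the lowest at 6 (85.7%). The SD was larger in the MCAO group than in the sham group at 13 of the 16 (81.2%), against 56.8% of all probe sets, and at 7 of the 7 widely varying members, against 69.6% of that class. No test was made of these shares, since probe sets of 1 gene and genes of 1 rat are not independent.

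**Figure D3:**
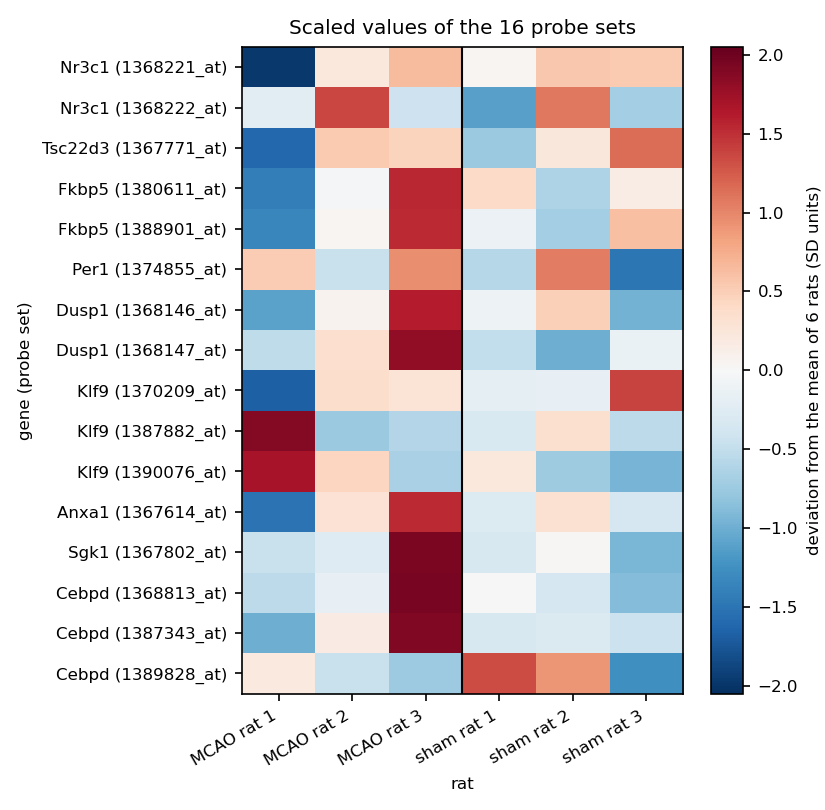
Deviation from the mean of the 6 rats divided by the SD over the 6 rats (colour, SD units) for the 16 probe sets (rows) in each rat (columns), with a line between the MCAO and sham groups. MCAO rat 3 is the highest of the 6 at 9 of the 16 probe sets and MCAO rat 1 the lowest at 8, and the 3 Klf9 probe sets run in opposite directions.

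Receptor and targets were then compared over the 6 rats, with 1 probe set per gene, the one with the highest mean. Of the 8 targets 6 correlated positively with Nr3c1 and 2 negatively (Per1 and Klf9), with a median Pearson r of 0.459, and 0 of 8 had an adjusted p under 0.05 (exact permutation tests over 720 pairings, Benjamini-Hochberg over 8). Tsc22d3 had the largest positive r at 0.864 (exact p = 0.0222, adjusted 0.178) with a Spearman rho of 0.543 (exact p = 0.297, adjusted 0.476). Without MCAO rat 1 and sham rat 1, the rats farthest from the Nr3c1 median, r was 0.00927, so this relation rests on those rats. Anxa1 had r = 0.807 (exact p = 0.0514, adjusted 0.206) and rho = 0.829 (exact p = 0.0583, adjusted 0.233), and r = 0.362 without them. Klf9 had r = -0.884 (exact p = 0.0917, adjusted 0.244) and rho = -0.429 (exact p = 0.419, adjusted 0.479), and r turned to 0.380 without them. The Klf9 probe set used here hardly varied (SD 0.00194 thousandths) and had MCAO rat 1 as its highest rat. At the first Klf9 probe set, which varied more (SD 0.0953), MCAO rat 1 was the lowest, as for Nr3c1. At the third Klf9 probe set (SD 0.00577) this rat was the highest. Neither of these other probe sets was compared with Nr3c1 here. Whether the negative sign depends on the probe set chosen was thus not tested. With 3 rats a group no correlation can be given within a group. With the group means subtracted, r was 0.869 for Tsc22d3, 0.941 for Anxa1 and -0.899 for Klf9.

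Among the targets themselves 28 pairs were compared, of which 20 correlated positively. For Dusp1 and Anxa1 r was 0.931 (exact p = 0.00139, the smallest that 6 rats allow, adjusted 0.0389) and rho was 1 (exact p = 0.00278, adjusted 0.0778). This was the 1 pair of the 28 that passed on Pearson's r, and none passed on Spearman's rho. How often pairs of other probe sets correlate positively, or reach such an r, was not determined. Without MCAO rats 1 and 3, the farthest from the Dusp1 median, r for Dusp1 and Anxa1 was 0.812. The 4 rats left are too few to settle whether the relation rested on those 2. With the group means subtracted r was 0.934. Dusp1 and Sgk1 had r = 0.912 (exact p = 0.00417, adjusted 0.0583) and rho = 0.943 (exact p = 0.0167, adjusted 0.156), with r = 0.999 over the 4 rats left without MCAO rats 1 and 3. Sgk1 and Cebpd had r = 0.9751 (exact p = 0.0167, adjusted 0.126) and rho = 0.771 (exact p = 0.103, adjusted 0.360). That relation rests on MCAO rat 3 and sham rat 3, since r was 0.112 without them. Between Tsc22d3 and each of Dusp1, Anxa1, Sgk1 and Cebpd r was 0.327, 0.638, 0.134 and 0.117, with sham rat 3 the highest rat for Tsc22d3 and for none of these 4. Whether these values differ from those among the other 4 genes was not tested.

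**Figure D4:**
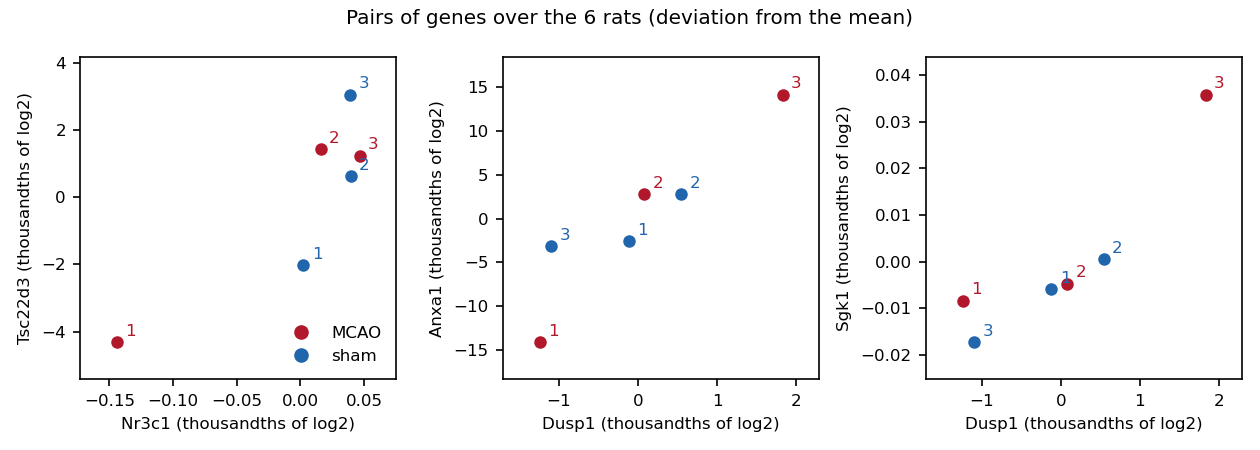
Deviations from the mean (thousandths of a log2 unit) of Tsc22d3 against Nr3c1, Anxa1 against Dusp1 and Sgk1 against Dusp1, with a point per rat in the colour of its group and the rat number beside it. The left panel is stretched by MCAO rat 1, whereas in the middle panel the 6 rats have the same order on both axes.

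As a measure of how far 1 gene can be read, probe sets of the same gene were compared in 9 pairs, of which 5 correlated positively. The 2 Fkbp5 probe sets ran together with r = 0.949 (exact p = 0.00972, adjusted 0.0875) and rho = 0.829 (exact p = 0.0583, adjusted 0.308), with r = 0.673 without MCAO rats 1 and 3. The first 2 Cebpd probe sets had r = 0.938 (exact p = 0.0333, adjusted 0.10) and rho = 0.771 (exact p = 0.103, adjusted 0.308), and r = 0.700 without MCAO rat 3 and sham rat 3. The first Klf9 probe set ran against the brighter one, with r = -0.870 (exact p = 0.0250, adjusted 0.10) and rho = -0.771 (exact p = 0.103, adjusted 0.308), and r = -0.824 without MCAO rat 1 and sham rat 3. The 2 Nr3c1 probe sets had r = 0.126 (exact p = 0.856, adjusted 0.856) and rho = 0.0857 (exact p = 0.919, adjusted 0.919). Without MCAO rat 1 and sham rat 1 their r was -0.702. The 2 Dusp1 probe sets had r = 0.650 (exact p = 0.167, adjusted 0.25) and rho = 0.371 (exact p = 0.497, adjusted 0.895). Without MCAO rats 1 and 3 their r was -0.417. None of the 9 pairs passed after adjustment.

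Markers of myeloid cells and platelets moved with the same rat. Averaged over 1 scaled probe set per gene, the receptor and its targets lay at -0.681, -0.0533 and 1.11 SD units in MCAO rats 1, 2 and 3, whereas sham rats 1, 2 and 3 had -0.275, 0.214 and -0.317. The 8 measured neutrophil markers lay between -0.511 and 1.31 among MCAO rats and between -0.540 and 0.197 among sham rats. The 6 monocyte markers lay between -0.770 and 1.12 among MCAO rats and between -0.394 and 0.488 among sham rats. The 6 platelet markers lay between -0.580 and 1.78 among MCAO rats and between -0.878 and 0.249 among sham rats. In all 3 lists the highest value was that of MCAO rat 3, as it was for the receptor and its targets. Csf3r, the receptor for G-CSF on neutrophils, had a deviation of 44.9 thousandths in MCAO rat 3 and of -21.3 in MCAO rat 1, with the other 4 rats between -7.81 and -3.98. S100a9, a subunit of calprotectin, had 55.0 in MCAO rat 3 and -44.1 in MCAO rat 1. The part of these cells in the values of Anxa1, Dusp1, Sgk1 and Cebpd was not tested. Rank Products called S100a9 lower in the MCAO group (FDR 0.0376) although its mean was higher by 2.71 (SE 27.8), and Csf3r higher (FDR 0.0328), with the groups overlapping at both. The Csf3r call was lost without MCAO rat 2 or 3 (FDR 0.9754 and 0.957) or sham rat 2 (0.0567), and the S100a9 call without MCAO rat 1 or 2 (0.753 and 0.0543) or any sham rat (0.266, 0.453 and 0.192). Both calls were also lost among the brighter probe sets (0.0630 for Csf3r and 0.0708 for S100a9), after quantile normalization (0.0819 and 0.0585) and with rank sums (1.33 and 1.22). The median moderated t was 0.9503 over the neutrophil, 0.0860 over the monocyte and 0.681 over the platelet markers. Without MCAO rat 3 these medians were 0.0467, -0.887 and -0.478, and after quantile normalization the neutrophil median was 0.113. No monocyte or platelet gene was called. Among monocyte genes Cd14, the endotoxin co-receptor, had a difference of 0.00847 thousandths (SE 0.00371) and Csf1r, the receptor for M-CSF, of -1.32 (SE 1.59), and among platelet genes Pf4 had 0.198 (SE 0.0986) and Ppbp 0.205 (SE 0.176). Of blood's own markers, the platelet chemokine Pf4 had a mean log2 value of 11.52 and the erythroid haem enzyme Alas2 of 12.99, where the table ran from 4.93 to 14.43.

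Lymphocyte markers moved otherwise. The B cell markers lay between -1.56 and -0.109 among MCAO rats and between -0.0237 and 1.20 among sham rats, and the T cell markers between -1.21 and 0.352 and between -0.00902 and 0.815. MCAO means lay below sham means for 6 of 6 B cell and 11 of 12 T cell genes, beside higher MCAO means at 53.4% of all probe sets. MCAO rat 1 was the lowest rat for 6 and 9 of these genes. This rat was also the lowest at 19.5% of all probe sets and at 57% of the 10% with the largest SD. Rank Products called 0.612% of all probe sets lower. Among the markers it called 3 B cell genes (Ms4a1, Fcmr and Cr2), 2 T cell genes (Cd3g and Tcf7) and 1 NK gene (Prf1) lower, and limma none. Without sham rat 2 or sham rat 3 none of these 6 calls held, with FDRs of 0.144 and 0.141 for Ms4a1 and of 0.607 and 0.510 for Cd3g. Leaving out MCAO rat 1 ended the calls of Cd3g (0.122), Tcf7 (0.0566) and Prf1 (0.0594), leaving out MCAO rat 2 those of Cr2 (0.0532) and Prf1 (0.0749), and leaving out sham rat 1 those of Cr2 (0.252), Cd3g (0.0837) and Prf1 (0.108). Quantile normalization ended those of Cr2 (0.165), Cd3g (0.0873) and Tcf7 (0.0501), the brighter probe sets those of Cr2 (0.118), Cd3g (0.1002) and Prf1 (0.0548), and rank sums those of Cd3g, Tcf7 and Prf1 (1.13, 1.13 and 1.12). The median moderated t was -2.22 over the B cell, -1.51 over the T cell, -1.12 over the NK and -0.266 over the erythroid markers. With each rat left out the ranges were -2.46 to -1.54, -1.9 to -0.861, -1.54 to -0.489 and, between sham rats 1 and 2 left out, -1.56 to 0.0103. The B and T cell medians were -4.96 and -3.75 with the replicate block, and the NK median was -0.416 with centred arrays. Of the erythroid genes, none of which was called, Slc4a1, the band 3 anion exchanger, had a difference of -0.541 (SE 0.279) and Alas2 of -0.00208 (SE 0.00171). NK and cytotoxic cell markers lay between -1.11 and 0.613 among MCAO rats and between -0.0628 and 1.17 among sham rats. Erythroid markers lay between -0.837 and 0.236 and between -0.876 and 0.967. MCAO rat 1 was at the bottom of both lymphocyte lists, but also of the NK (-1.11) and monocyte (-0.770) lists and of the receptor and its targets (-0.681). It was the lowest rat for the first Nr3c1 probe set and Tsc22d3 too. This position is thus not particular to lymphocyte markers, and the part of lymphocyte RNA in these 2 genes was not tested.

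**Figure D5:**
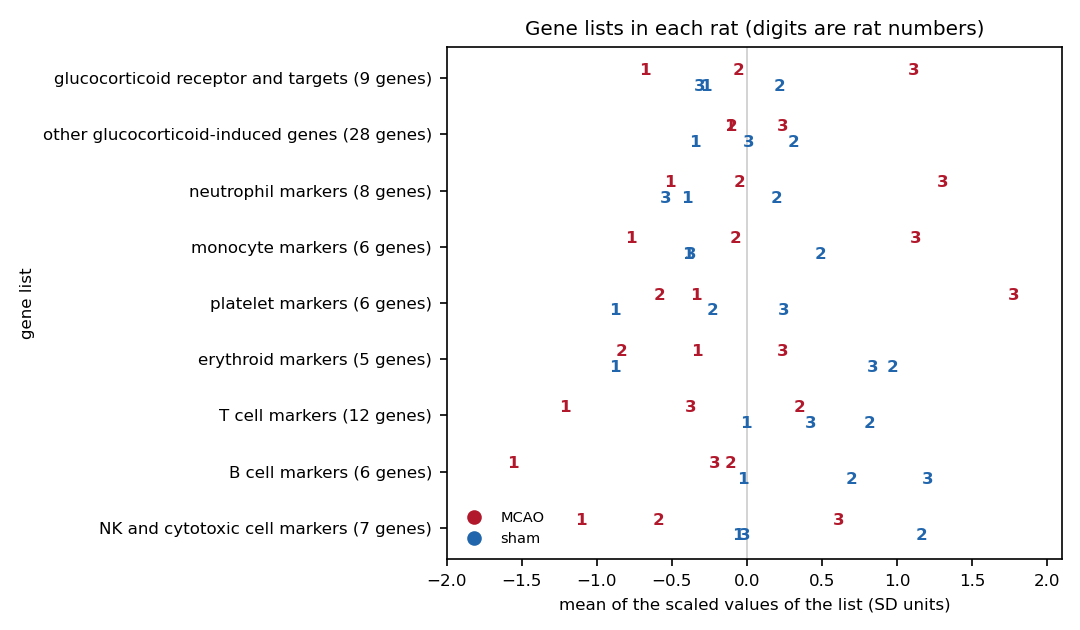
Mean of the scaled values of each gene list (x axis, SD units) for the receptor and its targets, other glucocorticoid-induced genes and markers of blood cells (y axis), where digits mark the rat and colours the group. MCAO rat 3 is far to the right for the receptor and targets (1.11) as for neutrophil (1.31), monocyte (1.12) and platelet (1.78) markers, but not for T or B cell markers. For the other glucocorticoid-induced genes it lies at 0.236, below sham rat 2 at 0.313.

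Other genes of the pathway were taken from lists and described in the same manner, with 1 probe set per gene. Of 28 measured genes that glucocorticoids induce in leukocytes or other tissues, 14 had a higher and 14 a lower mean in the MCAO group, and the median moderated t of limma was -0.124, beside 0.0809 over all probe sets. This median has no settled sign, since it ran from -0.416 to 0.176 with each rat left out in turn and was 1.57 with centred arrays. The scaled values of these 28 genes averaged between -0.113 and 0.236 among MCAO rats and between -0.347 and 0.313 among sham rats. MCAO rat 3 was the highest rat at 9 of the 28 and MCAO rat 1 the lowest at 10. Over all probe sets these shares were 15.5% and 19.5%, and 35.2% and 57% among the 10% with the largest SD. Rank Products called 1 of the 28 higher (Il1r2) and 1 lower (Acsl1), against 0.135% and 0.612% of all probe sets. Il1r2 encodes the decoy receptor of interleukin 1, which neutrophils carry and glucocorticoids raise. MCAO rats 1, 2 and 3 deviated from the mean by -0.0988, 0.161 and 0.665 thousandths, and sham rats 1, 2 and 3 by -0.297, -0.145 and -0.286, so every MCAO rat lay above every sham rat. MCAO rat 3 was the highest here as well. The difference was 0.485 (SE 0.216, FDR 0.03, exact permutation p = 0.1, limma adjusted p = 1). Its call was lost after quantile normalization (FDR 0.2504), among the brighter probe sets (0.0837), and when MCAO rat 1, 2 or 3 (0.237, 0.653, 0.275) or sham rat 3 (0.0532) was left out. Acsl1, an acyl-CoA synthetase, had a difference of -1.67 (SE 0.881, FDR 0.0285), with MCAO rat 1 at 0.683 within the sham rats. Its call was lost when MCAO rat 2 or 3 (FDR 0.0554 and 0.0695) or any sham rat (0.132, 0.356 and 0.381) was left out, and with quantile normalization (0.567), the replicate block (0.0923), the brighter probe sets (0.0764) and rank sums (0.421).

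For the receptor and targets themselves the median moderated t was 0.416, which turned to -0.332 after quantile normalization and to -0.491 without MCAO rat 3. Of 16 genes of receptor chaperones, coregulators and steroid enzymes, Hsp90ab1, a chaperone that holds the receptor ready for its hormone, was called higher (FDR 0.00385) and none lower. The median t of this list was -0.373, but 0.0199 without sham rat 3 and 1.5 with centred arrays. Its difference was 22.1 thousandths (SE 14.3). MCAO rats lay at 27.0, 2.25 and 3.90 and sham rats at 14.9, -23.3 and -24.7, with sham rat 1 within the MCAO rats. The call was lost without MCAO rat 1 (FDR 0.221) and with rank sums (1.28). Among the 18 inflammatory genes that glucocorticoids repress, 14 had a higher and 4 a lower mean in the MCAO group, and none was called. Their median t was 0.697 and ran from 0.255 without sham rat 3 to 0.707 without sham rat 1, but was 4.73e-09 after quantile normalization. Il6, the acute phase cytokine, had every MCAO rat above every sham rat with an unadjusted limma p of 0.0421 (adjusted 1), but its difference was only 0.00190 thousandths (SE 0.000677). Ccl3, a chemokine of monocytes, had a difference of -0.0649 (SE 0.0362). Of 14 clock genes other than Per1, 10 had a higher and 4 a lower mean with a median t of 0.412, which was -0.0389 without MCAO rat 1 and -0.0472 without sham rat 3, and none was called (Cry2 0.00750, SE 0.00683, and Bhlhe40 -0.00224, SE 0.00212). Of 18 immediate early genes, which respond to many stimuli and share Dusp1's rapid kinetics, 9 had a higher and 9 a lower mean, with a median t of 0.0373 that ran from -0.374 without MCAO rat 3 to 0.307 without MCAO rat 1 and was -0.0345 with the replicate block. Jund (difference -1.38, SE 0.542, FDR 0.0379) and Klf2 (-7.56, SE 7.96, FDR 0.0406) were called lower, and MCAO rat 1 was far below the others for Klf2 at -19.1. The Klf2 call was lost without this rat (FDR 0.361) and without any sham rat (0.0907, 0.705 and 0.399), as well as with rank sums (1.43), quantile normalization (0.0592) and the brighter probe sets (0.0880). The Jund call was lost without MCAO rat 2 or 3 (0.0557 and 0.0821) or any sham rat (0.134, 0.403 and 0.450), and likewise with the replicate block (0.127), quantile normalization (1.05), rank sums (0.412) and the brighter probe sets (0.0998).

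The genes whose order and spacing of rats were most like those of a member were read off over the 6 rats, among the probe sets with 1 gene symbol. For Nr3c1 they were Ripor2 (Pearson r = 0.9994), Wdr77 and Prpf38a (0.9971 each) among 20824 probe sets. For Tsc22d3 they were Med1 (0.9966), Smurf1 (0.9965) and Tpd52l2 (0.9957), and for Fkbp5 Cdkn2aip (0.9899), Pira2 (0.9870) and Prdm2 (0.9867). With 6 rats, 19 probe sets reached an r over 0.99 with Nr3c1 and 9 with Tsc22d3, and 0 with Fkbp5. No other member was among the genes named here, which says little, since only the nearest few of all these probe sets were read off.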

How the data were processed

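Whole-blood RNA of 6 rats was measured on GeneChip rat genome arrays. The authors normalized the scanner files with the DFW method in R, and the deposited values were read as log2, a base taken from their range. The 57 control probe sets were left out. Rank Products was computed with own code in Python 3.11.15 (numpy 2.4.6, scipy 1.17.1) with all MCAO minus sham pairs, 100 permutations and an FDR under 0.05. Log2 differences, standard errors and Benjamini-Hochberg adjusted p values over all 31042 probe sets came from limma 3.58.1 in R 4.3.3, in which same-numbered rats were not paired. Both were tested on simulated data. Symbols came from the array annotation, and 20826 probe sets carried 1 symbol. A gene of a list was represented by its probe set with the highest mean. All members are named, and of the other lists the genes called by Rank Products or else, where none was called, up to 2 with the largest t. Members, lists and tests were chosen with earlier results of these data known. The arrays hold no depth, and their number limits the precision.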

Additional observations from a re-analysis of the deposited data

How the results depend on the processing

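No member probe set was called under any alternative of limma (intensity trend, quantile normalization, centring, brighter probe sets, control probe sets kept, replicate block, each rat left out), with a lowest adjusted p of 0.240 under centring. By Rank Products 0 were called under every alternative other than leaving out a rat (an FDR under 0.01, rank sums, the replicate block, the scalings and filters), and leaving out each rat gave 0 to 1, the 1 being Anxa1 without sham rat 2. The number of members separated between the groups was 5 with arrays centred on the median (26.8% of all probe sets), all higher in the MCAO group, and 0 to 3 without each rat in turn (14.9% to 23.7% of all). Centring adds the same amount to the difference of every probe set. Deviations of same-numbered rats correlated at 0.211, 0.0400 and 0.0661. The first of these was over 0.1, the threshold set for pairing, and the other values were under it. The numbers were not taken as pairs in the main tests, and these values do not settle that choice. With the replicate block 0 members were called by either method and the median moderated t of the members was 0.401. This median ran from -0.491 without MCAO rat 3 to 1.24 without MCAO rat 1, and was -0.332 after quantile normalization and 1.37 after centring. The number of targets correlated with Nr3c1 was 0 after quantile normalization, with centred arrays, with the second Nr3c1 probe set and with group means subtracted. It was also 0 with each rat left out. There a target could have passed only together with others, so that 0 says little. With the second Nr3c1 probe set the median r was 0.0953, and with centred arrays -0.0610. Of the 16 member differences, 5 changed sign after quantile normalization and 5 without MCAO rat 3. Over all probe sets Rank Products called 42 higher and 190 lower, against 66 and 298 with the replicate block, 25 and 96 after quantile normalization, 30 and 77 among the brighter probe sets, 18 and 158 with rank sums, 18 and 331 without MCAO rat 3, 13 and 254 without MCAO rat 1, 14 and 170 without MCAO rat 2, and 47 and 42, 47 and 21 and 56 and 16 without sham rats 1, 2 and 3. limma called 0, but 42 higher and 20 lower after quantile normalization. The cause was not tested. Signal over background cannot be given.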
